A study of Mus musculus with 4 samples.

Results

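Clusters of CpGs that kept their methylation in uninduced fibroblasts and through an average of 0 or 1 division under factor induction (0Div and 1Div), and had less of it in the cohort that divided most (>3Div), are described here. The clusters were chosen by their measured levels in all 4 libraries, so their fall is a description and carries no test. A cluster is a run of at least 3 CpGs, each read at least 10 times in all 4 libraries, with neighbours at most 100 bp apart, and its level is the methylated share of its summed reads. Of 95090 autosomal clusters, 56332 were at 50% or more in control, 0Div and 1Div, and are called eligible below. Of these, 535 (0.95%) were at least 30 percentage points lower in >3Div than in the lowest of the other three libraries, and are called late-falling clusters. The word fall is used below for that difference from the lowest of the other three.

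The cells were secondary, inducible mouse embryonic fibroblasts (MEFs) of a 129/SvJ x C57/B6 hybrid, in which doxycycline switches on the reprogramming factors that turn somatic cells toward pluripotency. The control was uninduced, and the other groups were held 96 hours in doxycycline and had divided an average of 0, 1 or >3 times (the cohorts 0Div, 1Div and >3Div; the description of the last puts it at 3 or more divisions). Methylation was read by reduced representation bisulfite sequencing (RRBS), in which MspI fragments of 40 to 220 bp are bisulfite-treated so that unmethylated cytosines read as thymine. Groups are single libraries with no replicate, so culture, library and cohort cannot be told apart. The labels list media with 10%, 15% and 0.5% serum and do not say which cohort received the starvation medium, so serum and division number cannot be told apart either.

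In mammalian cells methyl groups on CpGs are copied to the new strand after each round of DNA replication by the maintenance methyltransferase DNMT1 with its partner UHRF1, and are removed either by a failure of this copying or by oxidation through TET enzymes. CpG islands are mostly free of methylation, whereas CpGs between genes, in gene bodies and in interspersed repeats are mostly methylated in fibroblasts. Many repeats are families of retrotransposons, whose copies share long stretches of sequence and hence the spacing of their CpGs.

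Summed over CpGs the libraries held 84606824 (control), 86782772 (0Div), 84954702 (1Div) and 94775128 (>3Div) reads, with a median of 24 to 35 reads per listed CpG. Of the >3Div reads 26.0% were methylated, against 43.5% to 44.6% in the other libraries. This share weights each CpG by its reads, so it depends on which CpGs were read as well as on their levels. The median level of eligible clusters that were not late-falling was 87.2% in control and 83.4% in >3Div. Late-falling clusters were thinner in the >3Div library: their median read number was 252 in control, 252 in 0Div, 267 in 1Div and 86 in >3Div. The depth of a late-falling cluster in >3Div was 0.411 times its depth in control at the median, and that of the other eligible clusters 0.668 times. The part of this depth difference in the fall was not tested.

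Late-falling clusters had similar levels in the first 3 libraries and lower ones in the last. Their median level was 73.4% in control, 74.1% in 0Div, 74.6% in 1Div and 34.2% in >3Div. The other 55797 eligible clusters had medians of 87.2%, 86.7%, 87.2% and 83.4%. The fall had a median of 35.3 points and reached from 30 to 68.0 points, while the median fall of the other eligible clusters was 1.09 points.

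**Figure D1:**
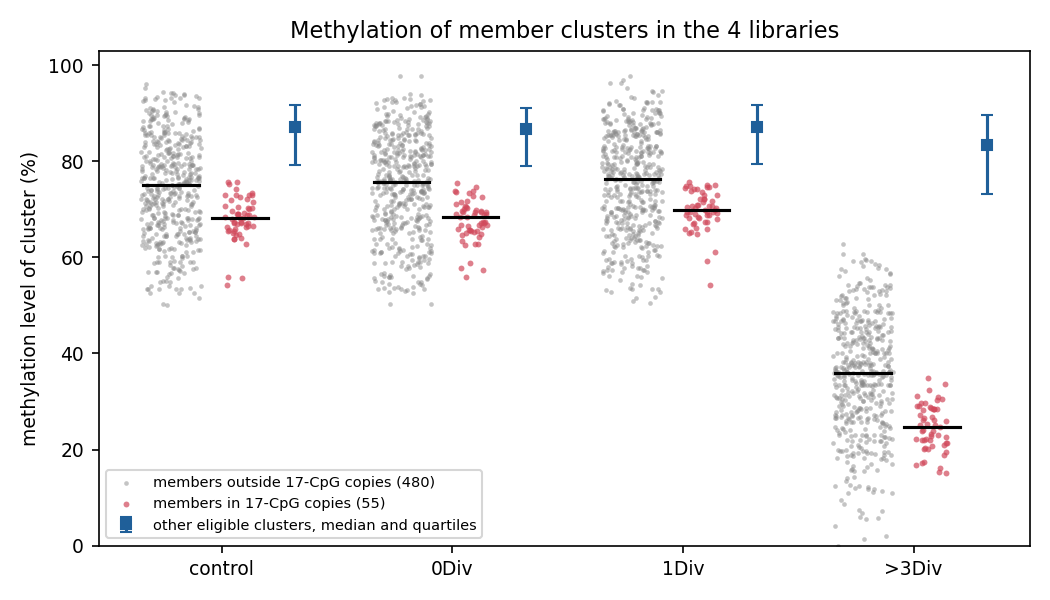
Methylation level (%, vertical axis) of each late-falling cluster in the 4 libraries, split into 480 outside and 55 inside copies of a repeated 17-CpG block, with black lines at the medians. Squares with bars are the median and quartiles of the other eligible clusters, which were at 87.2% in control and 83.4% in >3Div.

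Most of them lost part of their methylation, and few lost all of it. In a bulk library a partial level can come from some cells, from one parental allele or from some CpGs of each molecule, which cannot be told apart here. In >3Div 413 of the 535 were between 20% and 50%, 57 were still at 50% or more, and 65 were under 20%, 12 of these under 10%. The middle 50% of the clusters lay between 25.6% and 43.3% there. Among those just inside the threshold, the run on chromosome 2 from 6099740 to 6099756 stood at 61.9%, 55.6%, 56.2% and 25.6% in control, 0Div, 1Div and >3Div, a fall of 30 points by summed reads and 14.6 with equal weight per CpG. Just outside it, the run on chromosome 4 from 8940045 to 8940077 stood at 63.5%, 67.3%, 68.7% and 33.6%, a fall of 29.97 points. The other clusters nearest to the threshold were those at 46203013 on chromosome 13 and 77525170 on chromosome 8, inside with falls of 30 points each, and those at 165297047 on chromosome 2 and 62031559 on chromosome 8, outside with falls of 29.96 and 29.93 points.

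**Figure D2:**
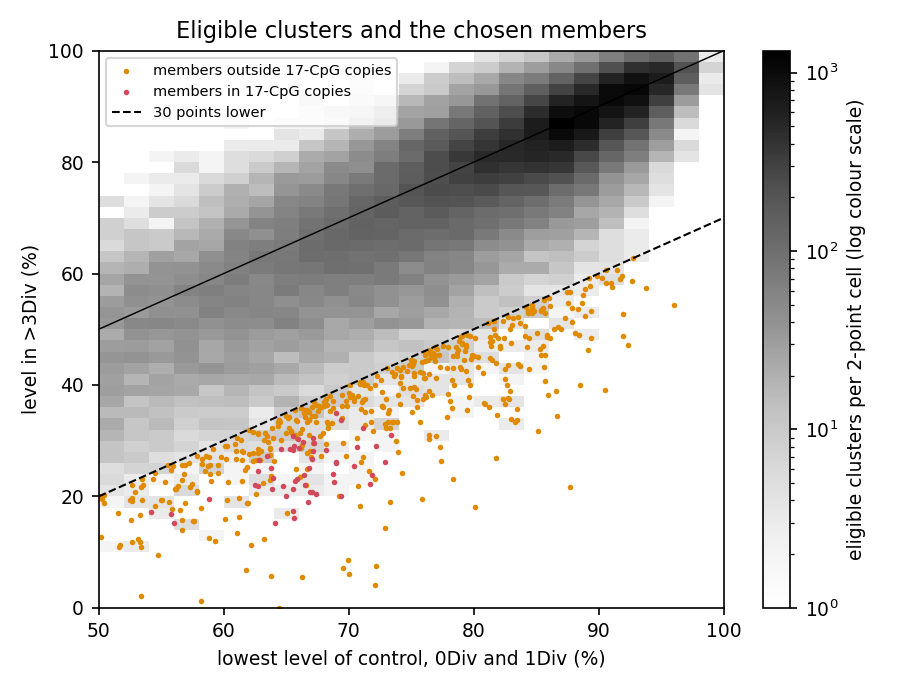
Level in >3Div (%, vertical axis) against the lowest level of the other three libraries (%, horizontal axis) for the 56332 eligible autosomal clusters, counted in a grid of 2-point cells on a log colour scale. The solid line marks equal levels and the dashed line 30 points lower; the 535 coloured points under the dashed line are the late-falling clusters, which continue the lower edge of the main cloud rather than forming a group apart from it.

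The same rule chose almost nothing when another library took the place of >3Div. It chose 1 cluster that was low in control alone, 1 that was low in 0Div alone and 0 that were low in 1Div alone. Those 3 searches started from 53805 to 53823 eligible clusters.

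The level is a share of reads in a single library. As a description of clusters already chosen for a gap of 30 points, the 95% Wilson interval in >3Div lay below those of the other three libraries in 535 of 535 clusters, by at least 10 points in 499 and by at least 30 points in 105. Its median width was 19.1 points, and 112 clusters had under 50 reads in that library. By Fisher's exact test (two-sided, summed reads, Benjamini-Hochberg adjustment over all 99566 clusters), all 535 were called lower in >3Div than in control (adjusted p under 0.05 and at least 10 points), against 11% of all clusters. The background was 11.2% against 0Div and 11.5% against 1Div, with all 535 called in each. The rule used these contrasts, so nothing is read from these counts. CpGs on a read are not independent and no molecular identifiers are recorded, so intervals and p-values cover counting error only.

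Within a cluster the fall was shared by most CpGs but was not even. The rule summed the reads of these same CpGs to choose the clusters, so the counts here are a description. Shares over the CpGs of all eligible clusters were not computed. Of the 2752 CpGs in the 535 clusters, 2595 (94.3%) were lower in >3Div than in each of the other libraries and 1568 (57.0%) were lower by at least 30 points. Every CpG was lower in 417 clusters. Every CpG was at least 15 points lower in 238. With equal weight for each CpG in place of summed reads, 371 of the 535 still fell by at least 30 points.

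The libraries other than >3Div differed less than the rule asks of >3Div, but somewhat more than at the other eligible clusters. The level in 1Div was below control in 226 of 535 (42.2%), against 49% of the other eligible clusters. The highest and the lowest of the control, 0Div and 1Div levels differed by a median of 4.97 points, against 3.64 at the other eligible clusters, and by more than 10 points in 59 of 535 clusters, against 3724 of 55797. In control the late-falling clusters also had a lower median level (73.4% against 87.2%) and fewer reads (252 against 297), and counting error depends on both. The part of this in the wider range was not tested. Between the 1Div and 0Div libraries, the same Fisher's exact test called 6 of 535 (1.12%) lower, against 0.285% of all 99566 clusters, and 10 (1.87%) higher, against 0.466% of all. The rule sets a floor for both of these libraries, and the test compares a pair of libraries rather than the conditions.

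Of the 6 clusters called lower in 1Div than in 0Div, 3 lie beside each other on chromosome 8, within the 4.12 kb from 125953781 to 125957896. The cluster from 125953781 to 125953979 was at 75.4% in control, 75.8% in 0Div, 62.2% in 1Div and 11.2% in >3Div. The cluster from 125955331 to 125955414 was at 70.6%, 70.1%, 53.3% and 11.8%, and the one from 125957785 to 125957896 at 74.8%, 75.3%, 63.2% and 22.4%. They were picked by this call, so the place of the 1Div level between 0Div and >3Div is no further result. The adjusted p of the difference between 1Div and 0Div was between 0.00016 and 0.000815 (Fisher's exact test, Benjamini-Hochberg over all clusters). With equal weight per CpG the last of the 3 fell by 22 points, in place of 40.8.

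This was the single place where 3 late-falling clusters lay within 10 kb of each other, and its neighbours moved with it. Counting these 3, there were 15 clusters here and in the 20 kb on either side, and 11 of them lay from 125949806 to 125958052. The 3 late-falling ones, whose fall the rule required, differed by -64.2, -58.8 and -52.5 points between >3Div and control. The rest of the 11 were all lower too, by 16.4 to 48.3 points. Of these 11, 8 were also 11.6 to 18.2 points lower in 1Div than in control, among them the 3 picked for a lower level in 1Div than in 0Div. Beyond 125958052 the next cluster, at 125966928, stood at 0.416% in control and 0.272% in >3Div. On the other side a cluster at 125935516 stood at 0.910% and 0.769%. Clusters this low in control have no room to fall, so they do not show where the stretch ended. Farther out, past 125966928, the cluster at 125976745 stood at 96.7% and 88.7%, a difference of -7.96 points with 71 reads in >3Div. Unlike most late-falling clusters, the 3 here were read more deeply in >3Div than in control, with 972 against 691 reads at 125953781, 626 against 371 at 125955331 and 1064 against 723 at 125957785, and the part of this in the difference was not tested.

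Late-falling clusters otherwise lay singly and on every autosome. Of the 535, 512 had no other within 10 kb, 10 pairs did, and there was the 1 group of 3. Chromosome 11 held the most, 46, and the share of eligible clusters that were late-falling was between 0.527% on chromosome 3 and 1.42% on chromosome 11.

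They were short, and partly methylated to begin with. The median late-falling cluster had 3 CpGs over 77 bp, and 56.6% had exactly 3, against 41.9% of the other eligible clusters with a median span of 76 bp. Of the eligible clusters at 60% to 70% in control 3.45% were late-falling, of those at 80% to 90% 0.557%, and of those at 90% or more 0.177%. The share also followed depth in >3Div: it was 4.09% among clusters with 30 to 50 reads in >3Div, 1.55% with 50 to 100, 0.369% with 200 to 400 and, with 400 or more, 0.655% or, without the repeated block described below, 0.191%. With depth in control there was no such course: 0.678% with 30 to 100 reads, 1.27% with 100 to 200, 0.927% with 200 to 400 and 0.819% with 400 or more. Short clusters with few reads scatter more under counting error, and how far that fills the list was not tested.

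CpG-dense clusters made up a larger share of the list than of the other eligible clusters. Density counts the CpGs seen in at least 1 library up to 100 bp away on each side; clusters averaging 4 or fewer are termed CpG-poor and those averaging 12 or more CpG-dense. Of the 535, 218 (40.7%) were CpG-poor, 238 were intermediate and 79 (14.8%) were CpG-dense. Of the other eligible clusters 35.1% were CpG-poor and 2.60% CpG-dense. Of all eligible CpG-dense clusters 5.16% were late-falling, against 1.10% of the CpG-poor and 0.681% of the intermediate ones. Of these 79 dense clusters, 55 held that block, and without it 1.63% of the eligible CpG-dense clusters were late-falling. The CpG-poor share of the list, 40.7%, depended on how clusters were built. It was 22.8% with gaps of 50 bp, 59.6% with gaps of 200 bp, 26.2% with 20 reads and 1.52% with at least 5 CpGs. The same shares of the other eligible clusters were not computed.

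A single arrangement of CpGs recurred through the list. It holds 17 CpGs over 165 bp, and the distances from each CpG to the next, read in one direction, are 8, 3, 19, 4, 5, 18, 4, 11, 16, 6, 36, 6, 2, 12, 6 and 8 bp. This spacing was noticed in the late-falling clusters, so its share among them is a description. Searching all listed CpGs on both strands for at least 13 of the 17 positions found 61 copies on 18 chromosomes, 36 in one orientation and 25 in the other. Of these, 28 matched all 17 positions and the least complete matched 14. No place matched 12 or 13 positions, and 6 matched 11. Copies at 61 places with equal CpG spacing are the mark of a repeated sequence, and how reads that fit several copies were placed is not given in the sources used here. The copies are therefore not independent of each other.

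The block was partly methylated before and lost about the same amount at nearly every copy. Of the 61 copies 55 are late-falling clusters, 10.3% of all of them. Over these 55 copies the mean level was 67.7% ± 4.72 in control, 67.4% ± 4.49 in 0Div, 69.7% ± 4.35 in 1Div and 24.1% ± 4.90 in >3Div (SD over copies of the same libraries, not over cultures). The copies lay between 51.0% and 76.3% in control and between 14.8% and 34.1% in >3Div, a separation that the rule itself requires and that the 6 other copies below do not all show. The >3Div minus control difference was -43.6 ± 4.68 points (SD, 55 copies), from -52.0 to -36.2 points. The other late-falling clusters were spread more widely, with quartiles of 27.0% and 44.4% in >3Div.

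Single copies, chosen for the most CpGs and then the most control reads, illustrate these levels. On chromosome 16 from 76143360 to 76143525 the levels were 66.0% of 1505 reads in control, 69.4%, 70.4% and, in >3Div, 30.3% of 723 reads. On chromosome 1 from 193758233 to 193758397 they were 69.6%, 62.8%, 66.9% and 26.6%. On chromosome 15 from 76396524 to 76396688 they were 62.8%, 65.4%, 69.5% and 21.9%. A copy on chromosome 12 at 55875952 went from 67.3% to 30.9%. The rule chose these copies as well, so their low >3Div levels are a description.

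The rule left out 6 copies. The one on X at 15051915 was outside the autosomal rule and stood at 64.4% in control and 22.7% in >3Div. Copies on chromosome 1 at 166154687, from 47.7% to 5.50%, on chromosome 11 at 5906464, from 43.9% to 15.3%, and on chromosome 5 at 110336081, from 61.6% to 34.2%, were under 50% in at least 1 of the first 3 libraries. A copy on chromosome 18 also started under 50%, at 48.5%, and ended at 14.1%. The exception was a copy on chromosome 10 at 8270158, at 58.3% in control, 54.6% in 0Div, 57.0% in 1Div and 53.4% in >3Div, which was read 252 times per CpG in control against a median of 68.1 over all copies. The rule requires the 55 late-falling copies to be lower in >3Div than in each of the others. These 6 copies were lower as well, the chromosome 10 copy by 1.15 points.

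**Figure D3:**
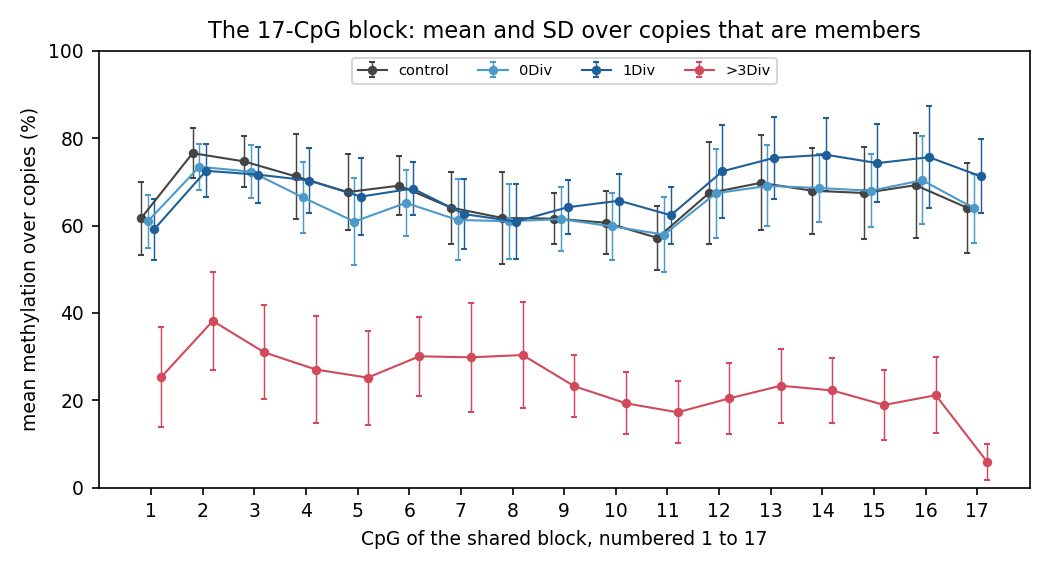
Mean methylation (%, vertical axis) of each of the 17 CpGs of the repeated block (horizontal axis) in the 4 libraries, with bars for the SD over the copies that are late-falling clusters. The >3Div points lie below the others at all 17 CpGs, and the lowest is CpG 17 at 5.87%.

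Every CpG of the block took part. The smallest mean difference between >3Div and control was -31.4 points, at CpG 8. The largest was -58.2 points at CpG 17, which went from 64.1% in control and 71.3% in 1Div to 5.87% in >3Div. CpGs 12 to 16 differed by -48.5 to -45.7 points and CpG 1 by -36.3 points. CpG 17 lies at one end of the block, and it was lower in >3Div than in control in all 55 copies. The rule chose these copies by the summed reads of the same CpGs, so the differences are a description.

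The CpGs around the block were shared between copies too, and those outside its span fell less. Counting from the first CpG of the block along the copy, 57 further positions within 8 kb were listed in at least 20 copies. The position 1 bp after that first CpG lies within the span, and went from 78.2% in control to 43.6% in >3Div (26 copies). All further positions lie outside it. Those 150 to 191 bp before the block averaged 81.4% in control and 67.7% in >3Div, a difference of -13.7 ± 5.45 points (SD, 47 copies). Those 658 to 776 bp after its first CpG went from 71.5% to 52.4%, a difference of -19.1 ± 6.48 points (SD, 40 copies). The 41 positions from 1259 to 6733 bp were at 90.2% in control, 89.9% in 0Div, 89.8% in 1Div and 86.9% in >3Div, a difference of -3.29 ± 3.43 points (SD, 37 copies).

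The shared positions ran from 191 bp before the block to 6733 bp after its first CpG, and the mean difference was largest in the block itself. In the 37 copies with values for both, the block differed by -42.6 ± 4.59 points and the far positions by -3.29 ± 3.43 points. The block difference was fixed by the rule to be large in these copies, so no test or count is drawn from the pair. The far positions were not used by the rule, and their median depth was 72 reads per CpG in control and 52 in >3Div, against 66 and 31 in the block. A single far position stood out, at 4805 bp, with 87.3% in control and 69.7% in >3Div.

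**Figure D4:**
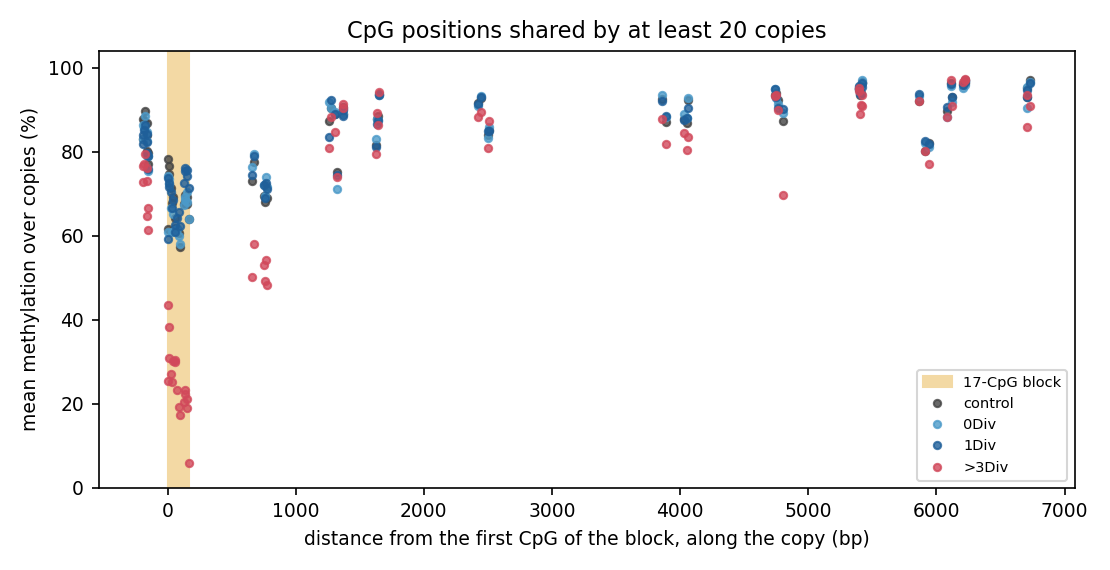
Mean methylation (%, vertical axis) over copies at CpG positions listed in at least 20 copies, against distance from the first CpG of the 17-CpG block (bp, horizontal axis), with the block shaded. The >3Div points lie far below the others in the block, less so up to 776 bp, and close to them from 1259 bp on.

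No other spacing shared by at least 20 clusters differed by as much as that of the 17-CpG block. Rarer spacings did, such as 8, 3 and 11 bp in 3 clusters, all late-falling, at -59.3 points. Among autosomal clusters, 90 spacings of at least 4 listed CpGs were shared by at least 20 clusters and had a control mean of at least 50%, and together they held 9149 clusters. Of these 90, 85 were lower in >3Div than in control, with a median difference of -2.76 points. The 17-CpG spacing was the lowest, at -43.4 points over the 26 clusters that share it exactly. It was picked as the spacing most often shared by late-falling clusters, and 25 of its 26 clusters are late-falling. Its rank therefore follows from the rule and is a description. The next was a 6-CpG spacing of 4, 8, 10, 77 and 19 bp with 25 clusters, from 68.2% to 48.9%, a difference of -19.3 points and no late-falling cluster. Read in reverse, these are the distances between the shared positions 658 to 776 bp after the first CpG of the block. It is therefore no arrangement apart from the block. A late-falling cluster at 101543222 on chromosome 4, 494 bp from a copy, had distances of 4, 8, 10, 30, 47 and 19 bp. No late-falling cluster had any of 88 of the 90 spacings. The exceptions were the 17-CpG spacing and a spacing of 4, 8 and 4 bp, with 4 late-falling clusters of 154 eligible.

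**Figure D5:**
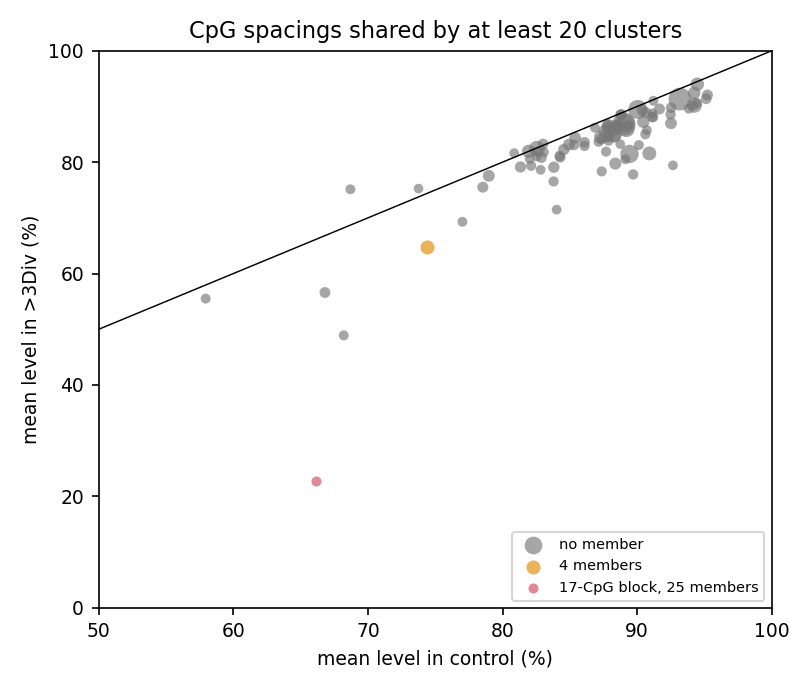
Mean level in >3Div (%, vertical axis) against control (%, horizontal axis) for the 90 CpG spacings shared by at least 20 clusters; the area of a point grows with the number of clusters and the line marks equal levels. Most points lie just under the line. The 17-CpG spacing lies at 66.1% and 22.7%, and 25 of its 26 clusters were chosen by the rule for their fall.

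A rarer spacing of 7 CpGs, with distances of 4, 11, 13, 2, 45 and 44 bp, had 4 late-falling clusters among its 6 clusters. Its mean was 77.4% in control, 78.3% in 0Div, 76.0% in 1Div and 42.0% in >3Div. Counting every CpG listed in any library within the span of a cluster, 274 late-falling clusters had at least 4. Of these, 102 (37.2%) had the spacing of at least 1 other autosomal cluster, against 42.5% of eligible clusters counted the same way. The copies of the 17-CpG block weighed on this share, and 49 of the 102 lay outside them.

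Several of the deepest falls in the list ended under 10%. Among clusters with at least 100 reads in every library, the largest fall was on chromosome 5 from 23723819 to 23723850, a run of 4 CpGs at 72.1% in control, 79.9% in 0Div, 79.3% in 1Div and 4.10% in >3Div (Wilson interval 2.54% to 6.56%, 390 reads). It lies 1951 bp from a copy of the 17-CpG block, and 4 late-falling clusters in all lay within 5 kb of a copy without overlapping it. The run from 172974914 to 172974919 on chromosome 1 was at 60.4%, 58.2%, 64.7% and 1.31% (0.447% to 3.78%, 229 reads). On chromosome 7 from 12791567 to 12791638 the levels were 69.5%, 73.6%, 77.3% and 7.23%. The cluster on chromosome 5 from 130661182 to 130661251 was at 93.1%, 89.2% and 87.7% and ended at 21.7% (16.4% to 28.1%, 189 reads).

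Of the 10 deepest, 5 came from 3 places that share another CpG spacing. On chromosome 4 from 125747312 to 125747551, 22 CpGs were listed, and 20 and 19 of these positions recurred on chromosome 1 from 129935116 to 129935348 and on chromosome 5 from 133950963 to 133951195. No other place matched more than 15. Over the matched CpGs the levels were 72.8%, 74.6%, 78.4% and 12% on chromosome 4, 63.2%, 72.9%, 75.9% and 9.43% on chromosome 1, and 64.7%, 72.7%, 78.1% and 8.67% on chromosome 5. All 3 places were low in >3Div alone. Their near-equal spacing means that reads may have been shared between them, so they are not independent. On chromosomes 4 and 5 each place held a pair of late-falling clusters 105 bp apart. The runs starting at 125747365 and 125747492 on chromosome 4 ended at 7.44% and 6.06%, and those starting at 133950988 and 133951127 on chromosome 5 at 8.62% and 6.84%. The run starting at 129935280 on chromosome 1 ended at 5.67%, and it was also called higher in 1Div than in 0Div, at 81.9% against 68.1% (Fisher's exact test, adjusted p = 0.016).

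Deep coverage did not always mean a fall at every CpG. The cluster on chromosome 3 from 120444782 to 120444877 was at 90.5%, 91.3%, 90.7% and 39.2% by summed reads, a fall of 51.4 points, but by 3.33 points with equal weight per CpG. The same held on chromosome 17 from 36844408 to 36844513, with falls of 38.5 points by summed reads and 6 with equal weight, and on chromosome 1 from 68644932 to 68645280, with 36.3 and 10.9 points. The summed level gives more weight to the CpGs with most reads, and all 3 were read more often in >3Div than in the other libraries, at 572 against 408 to 485 reads, at 5426 against 1271 to 2609 and at 2656 against 1660 to 2524. The first 2 begin with distances of 3, 7, 13, 4 and 21 bp between CpGs. The shorter spacing of 3, 7, 13 and 4 bp was shared by 1381 clusters that averaged 93.2% in control and 91.3% in >3Div, none of them late-falling. Longer spacings shared by at least 20 clusters that begin with all of these distances differed more, by -13.2 (from 92.7% to 79.4%, 21 clusters) to -3.01 points (27 clusters). None of those clusters was late-falling either. The deep cluster on chromosome 14 from 66663784 to 66663978 was more even, and its 15 CpGs went from 53.5%, 50.2% and 53.4% to 12.6%, a fall of 37.5 points or, with equal weight, 35.7. The most deeply read cluster, 17 CpGs on chromosome 11 from 3093350 to 3093629, had 34385 reads in control and 12675 in >3Div, and was at 76.5%, 78.6%, 77.0% and 41.9%. Its 17 CpGs are not the repeated block, and the part of its depth in the result was not tested. On chromosome 12 from 19252751 to 19252953 the levels were 65.2%, 69.7%, 68.1% and 34.3%, a fall of 30.9 points by summed reads, 23.8 with equal weight per CpG and 26.3 without the CpGs of highest coverage.

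CpGs near late-falling clusters were lower too, most of all within 300 bp. At CpGs at 50% or more in control and outside the late-falling clusters, the mean difference between >3Div and control was -13.6 points within 300 bp of a late-falling cluster, against -5.88 points around the other eligible clusters. From there to 1 kb it was -12 against -5.30 points, from 1 to 3 kb -8.34 against -6.70, from 3 to 10 kb -8.75 against -7.34, and from 30 to 100 kb -7.60 against -6.93. The copies of the 17-CpG block weighed on this course. Without them the values were -13.7 points within 300 bp, -9.07 to 1 kb, -10.3 from 1 to 3 kb, -9.36 from 3 to 10 kb and -7.64 from 30 to 100 kb. Around the copies alone they were -18.8 points from 300 bp to 1 kb and -1.79 from 1 to 3 kb. Starting levels differed as well. Within 300 bp the CpGs averaged 80.6% in control around all late-falling clusters and 86.4% around the other eligible clusters. From 30 to 100 kb these means were 83.0% and 83.9%. The part of the starting level in the differences was not tested. In the 500 kb on either side, CpG-poor sites were at a median of 72.0% in control around late-falling clusters and 74.5% around the others, and they differed by -7.21 and -7.14 points between >3Div and control. Late-falling clusters lay nearer to unmethylated sequence: the median distance to a cluster under 20% in control was 34.2 kb, against 67.4 kb for the others, and 32 of 535 (5.98%) had one within 2 kb, against 3.00%. These comparisons are descriptions, since neighbouring CpGs share reads, libraries and the same contrast.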

How the data were processed

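Per the submitters' processing notes positions are on mm9. Which aligner and caller were used, how conversion and duplicates were handled and whether positions start at 0 or 1 is not given in the sources used here, so positions are printed as deposited. For each CpG the authors deposited 2 whole-number read counts, methylated and unmethylated, with no header. Levels, clusters and densities were computed from these counts with Python 3.11.15, numpy 2.4.6 and pandas 2.3.3, and tests with numba 0.67.0, checked against scipy 1.17.1 and tested on simulated data. Median coverage was 24 to 35 reads per CpG and library. A call needed both 10 points and an adjusted p under 0.05. Clusters named were the 10 with the largest fall among those with at least 100 reads in every library, the 5 with most CpGs (ties broken by control reads), the 5 with most reads in their shallowest library, the 3 on either side of the threshold and the 3 largest groups within 10 kb. Other places named, the repeated spacings among them, were chosen after their values were seen. The members, rules and alternatives were chosen with earlier results of these data known. Alternatives were other read minimums, gaps, cluster sizes, thresholds and weights, thinning each CpG to its lowest coverage, and leaving out the CpGs of highest coverage; including X and leaving out the 17-CpG copies were added after seeing the data. The gene annotation at hand is on another build, so genes and sequences were not analysed here.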

Additional observations from a re-analysis of the deposited data

Results flagged for a closer look

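The X chromosome was outside the rule, and 21 of its 3465 clusters at 50% or more in control, 0Div and 1Div (0.606%) would have been chosen, against 0 when control, 0Div or 1Div took the place of >3Div. The largest such fall on X was 45.4 points, and the share on the autosomes was 0.95%.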

How the results depend on the processing

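The number of late-falling clusters depended on the thresholds: in place of 535 it was 965 with a minimum of 5 reads per CpG, 267 with 20 reads, 132 with at least 5 CpGs per cluster, 2037 with a fall of at least 20 points, 144 with at least 40 points and 283 with at least 70% in the other libraries. It was 432 after thinning to equal depth, where 370 of the 535 were overlapped, and 412 with equal weight per CpG, where 367 were. It stayed between 464 and 628 with gaps of 50 and 200 bp, without the CpGs of highest coverage (530), with X (556) and without the 17-CpG copies (480). A similar number did not mean the same clusters. Of the 535, 353 were overlapped with gaps of 50 bp, 396 with gaps of 200 bp and 528 without the CpGs of highest coverage. With at least 5 CpGs, 3811, 3800 and 4065 clusters were called lower in >3Div than in control, 0Div and 1Div, and 113 lower in 1Div than in 0Div. With calls at 20 points these were 3830, 3794, 4159 and 30. After thinning, 112 clusters were lower in 1Div than in 0Div, against 284. Of 202 recomputed falls of the 28 named clusters, 176 moved little, 22 moved and 4 turned their sign: chromosome 17 at 36844408 to -2.30 points with gaps of 50 bp and again without the CpGs of highest coverage, and chromosome 3 at 120444782 to -3.08 points with gaps of 50 bp and -1.49 after thinning. No paired analysis was possible because each group had 1 library. Depth in >3Div limits the list: 240 of the 535 had at least 100 reads in every library.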
